A study of Mus musculus with 76 samples.

Results

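The genes of the proteasome were examined in the hippocampus of mice that express mutant human tau. The set was chosen by name, without use of any measured value: every gene whose single symbol begins with Psm, a letter from a to g and a number, except the immunoproteasome genes Psmb8, Psmb9 and Psmb10. This gave 43 genes of the 11807 that the array measured under 1 symbol, each read from 1 probe set, the one with the highest mean signal over all 76 arrays. Of these 43, 41 encode subunits, activators, an inhibitor or assembly chaperones of the proteasome. The other 2, Psmc3ip and Psme3ip1, are named for a protein that binds a subunit and are given apart. Psmb11, Psmc6, Psmd10 and Psme4 had no probe set under a symbol of their own and were not analysed here.

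Hippocampal RNA of 76 female mice was hybridised, 1 mouse to an array. rTg4510 mice carry a responder transgene for mutant human tau together with the tetracycline transactivator tTA under the CaMKIIα promoter, which acts in forebrain neurons. The tTA genotype has only the transactivator, and double negative (DN) mice have neither transgene. There were 10 rTg4510 mice at 1.9 months, 10 at 4.7 months and 6 at 6.1 months, and 10, 10 and 5 mice of each of the tTA and DN genotypes at 4.7, 6.1 and 10.7 months (group ages; the rTg4510 mice of the 4.7 month group, for example, were 4.5 to 5.0 months old). All 3 genotypes were littermates of 1 cross. Mice with only the tau responder were not on these arrays, and rTg4510 mice at 1.9 months had no control of that age, so the tau contrast is rTg4510 against tTA at 4.7 and 6.1 months.

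The proteasome degrades proteins that carry ubiquitin chains. Its 20S core is a barrel of rings of alpha subunits, which gate the entrance, and of beta subunits, which hold the protease sites of Psmb5, Psmb6 and Psmb7. The 19S regulatory particle binds the chain, removes it and unfolds the substrate with a ring of ATPases. An alternative cap, PA28, opens the core without ubiquitin. Its alpha and beta chains, Psme1 and Psme2, are induced by interferon gamma together with the immunoproteasome, whereas its gamma form, Psme3, is nuclear. In neurons the proteasome is among the routes by which tau is removed, and its impairment has been studied in tauopathy.

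Measured values were the deposited log2 signals, and a difference between groups is a difference of mean log2 signals, so that 0.26 is a 1.2-fold change. A gene was called when the adjusted p of limma, corrected by the Benjamini-Hochberg method over all 22626 probe sets, was below 0.05. The genes varied little between mice of a group. Their median within-group SD was 0.08, against 0.13 over all genes and 0.11 over genes brighter than the median gene, and it was lowest for the 19S ATPases, at 0.06, and highest for the assembly chaperones of the core, at 0.12. All but Psma8 of the 43 lay above the median gene signal of 5.87. Psma8, an alpha subunit of the testis, had a mean of 2.95, near the lowest values on the arrays, and its values below do not show that it was expressed. Array medians were 5.23 to 5.39.

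Markers of some cell types moved with the tau genotype. Of 9 microglial markers, 9 rose in rTg4510 against tTA mice at both ages, and the mean signal of the list ran from 7.11 to 8.58 in rTg4510 against 6.91 to 7.67 in tTA mice at 4.7 months and from 8.24 to 8.75 against 7.002 to 7.263 at 6.1 months. The low value of 7.11 at 4.7 months was rTg4510 mouse 40, which lay within the tTA range, and Psme1 and Psme2 below were called without it. Of 4 CA1 pyramidal markers, 3 fell at 4.7 and 4 at 6.1 months. The general neuron list of 7 markers had 1 lower and 0 higher at each age, and its mean signal differed by -0.056 and 0.062. Among 7 dentate granule markers, 2 fell at 4.7 months, and 1 rose and 1 fell at 6.1 months. The mean signal of the dentate list differed between tTA and DN mice by -0.67, -0.91 and -0.95 at 4.7, 6.1 and 10.7 months. Of 5 astrocyte markers, 2 rose at 4.7 and 5 at 6.1 months, and the mean signal of the list differed by 0.40 and 0.63. The median difference over these markers was smaller, 0.17 and 0.29. The choroid plexus list, of which 0 of 6 markers were called at either age, was higher in mean signal in rTg4510 mice by 1.74 at 4.7 months, with medians of 7.83 and 4.81, and by 0.84 at 6.1 months. It ranged widely within a group, over 4.52 to 9.04 in rTg4510 and 4.54 to 8.58 in tTA mice at 4.7 months. Fewer cells of a type and less RNA per cell cannot be told apart in whole tissue.

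At both ages, most proteasome genes differed little between rTg4510 and tTA mice, and the genes called higher were the 2 chains of PA28. At 4.7 months, Psme1 and Psme2 rose, and no gene of the set fell. At 6.1 months Psme2 rose and Psmd11, a 19S lid subunit, fell. As counts, 2 of the 43 genes were called higher and 0 lower at 4.7 months, where 5.73% of all genes were called higher and 3.38% lower. At 6.1 months 1 was called higher and 1 lower, where 6.23% of all genes were higher and 8.64% lower. With 43 genes, none of these counts exceeded the share of all genes. The median difference over the 43 genes was -0.0028 at 4.7 months and -0.015 at 6.1 months, beside -0.0092 and -0.020 over all genes. Centring every array on its median moved the split over all genes from 676 higher and 399 lower to 551 and 632 at 4.7 months, and from 736 and 1020 to 607 and 1335 at 6.1 months. In the set it left 2 higher and 0 lower at 4.7 months, and gave 0 higher and 2 lower, Psmd11 and Psmg2, at 6.1 months.

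**Figure D1:**
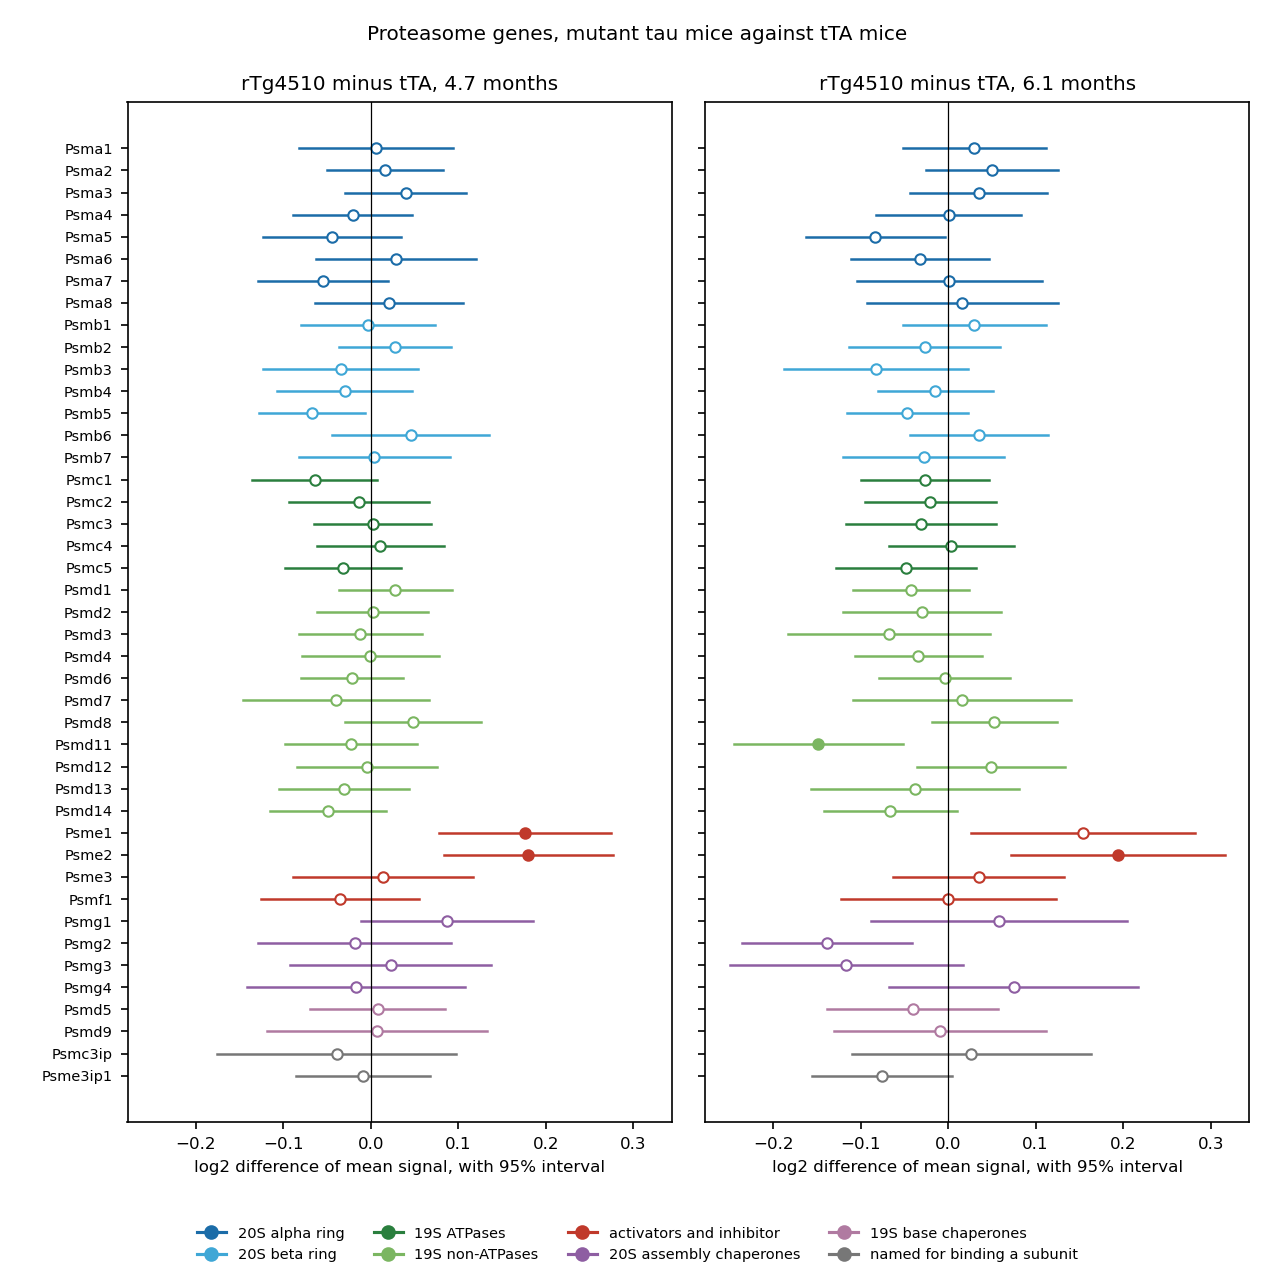
Difference in mean log2 signal between rTg4510 and tTA mice (horizontal axis) for each of the 43 genes (vertical axis) at 4.7 months (left) and 6.1 months (right), with its 95% interval and coloured by class. Filled points passed the threshold: Psme1 and Psme2 at 4.7 months, Psme2 and Psmd11 at 6.1 months.

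The sizes of the differences were small. At 4.7 months 2 of the 43 genes, Psme1 and Psme2, differed by more than 0.1 in either direction, against 29.7% of all genes and 32.1% of the brighter ones. At 6.1 months Psme1, Psme2, Psmd11, Psmg2 and Psmg3 did, 5 in all, against 38.99% and 44.74%. None of the 43 passed 0.2 at either age, where 10.7% and 15.8% of all genes did. The 95% interval of the difference, taken for each gene alone, lay within 1.2-fold in both directions for 41 of the 43 genes at either age, and for 77.8% of all genes at 4.7 and 66.1% at 6.1 months. Psme1 and Psme2 were the exceptions at both ages.

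**Figure D2:**
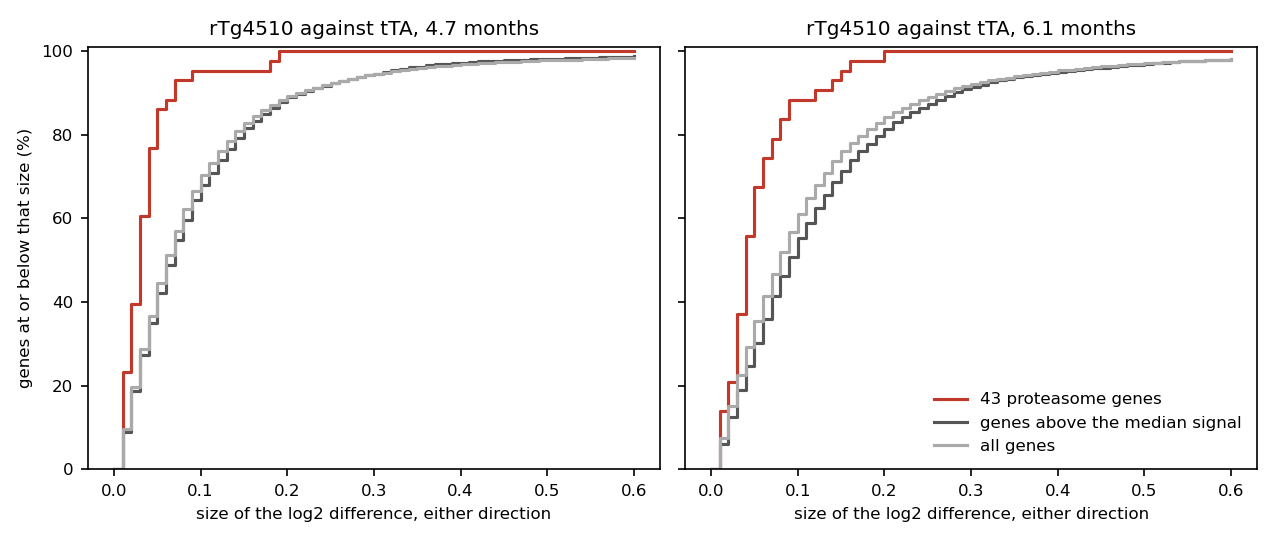
Share of genes (vertical axis, percent) whose log2 difference between rTg4510 and tTA mice, in either direction, is at or below the size on the horizontal axis, at 4.7 months (left) and 6.1 months (right). The line of the 43 genes reaches 100% before 0.2 at both ages, to the left of the lines of all genes and of genes above the median signal.

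In the 20S core no gene was called at either age. The 8 alpha genes differed by -0.05 to 0.04 at 4.7 months and by -0.08 to 0.05 at 6.1 months, with no interval beyond -0.16 or 0.13. Psma5 was the furthest from 0 at 6.1 months. Its signal was 8.38, 8.47 and 8.55 (lowest, median and highest of 6) in rTg4510 and 8.43, 8.53 and 8.65 (of 10) in tTA mice, a difference of -0.08 ± 0.04 (SE, limma adjusted p = 0.182). The 2 groups overlapped over most of their range. Psma4 was the nearest to 0, at 0.0005 ± 0.040 (limma adjusted p = 0.997).

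The 7 beta genes differed by -0.07 to 0.05 at 4.7 and by -0.08 to 0.04 at 6.1 months, with no interval beyond -0.19 or 0.14. Of the catalytic subunits, Psmb5, the chymotrypsin-like site and the target of proteasome inhibitors, had 9.93, 10.02 and 10.11 (lowest, median and highest) in rTg4510 and 9.98, 10.08 and 10.16 in tTA mice at 4.7 months. The difference was -0.07 ± 0.03 (SE, n = 10 and 10), with an unadjusted p of 0.0306 and a limma adjusted p of 0.188. At 6.1 months it was -0.05 ± 0.03 (limma adjusted p = 0.441). Psmb6, the caspase-like site, differed by 0.05 ± 0.04 and 0.04 ± 0.04, and Psmb7, the trypsin-like site, by 0.0043 ± 0.042 and -0.03 ± 0.04. The structural subunit Psmb3 had the largest difference of the ring at 6.1 months, -0.08 ± 0.05 (limma adjusted p = 0.355), and Psmb4 the smallest, -0.015 ± 0.033.

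**Figure D3:**
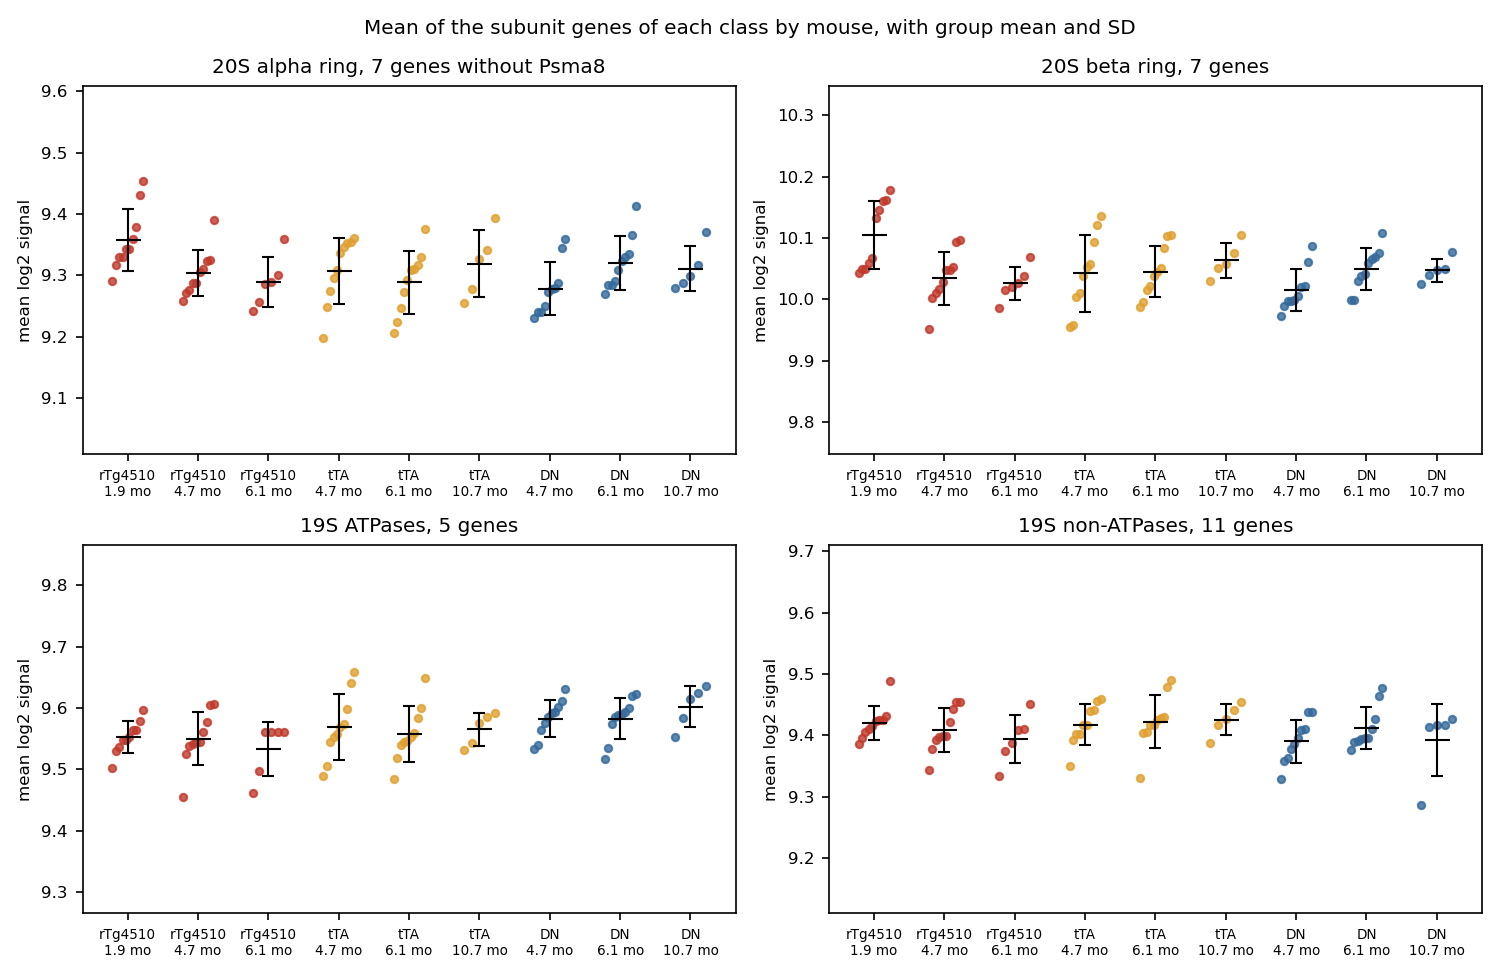
Mean log2 signal of the genes of 4 classes (vertical axis) in each mouse of the 9 groups (horizontal axis), where a point is 1 mouse and the bars are the group mean and SD. Psma8 was left out of the alpha ring mean. Each panel spans 0.6 on the log2 scale. The groups overlap in every panel, and the 1.9 month rTg4510 mice have the highest mean in both 20S panels.

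In the 19S particle, Psmd11 was the 1 gene called. No ATPase gene was called, and the 5 differed by -0.06 to 0.01 at 4.7 and -0.05 to 0.0037 at 6.1 months, with no interval beyond -0.14 or 0.08. Psmc5 had the largest difference at 6.1 months, -0.05 ± 0.04, and Psmc4 the smallest, 0.0037 ± 0.035. Psmc4 had 8.93 to 9.07 in the 6 rTg4510 and 8.90 to 9.10 in the 10 tTA mice at that age, with the rTg4510 mice inside the tTA range. Of the 11 non-ATPase genes, 0 were called at 4.7 months and 1 at 6.1 months. The ubiquitin receptor Psmd4 differed by -0.0004 ± 0.038 and -0.03 ± 0.04. The lid deubiquitinase Psmd14 differed by -0.05 ± 0.03 and -0.07 ± 0.04 (limma adjusted p = 0.437 and 0.294). Psmd6, with -0.0040 ± 0.036 at 6.1 months, was the nearest to 0.

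Psmd11, which clamps the lid to the core, fell at 6.1 months. Its signal was 9.52, 9.59 and 9.68 (lowest, median and highest of 6) in rTg4510 and 9.64, 9.73 and 9.93 (of 10) in tTA mice, and 9.55, 9.68 and 9.85 in DN mice. The highest tTA value was that of mouse 21. All but 1 of the rTg4510 mice lay below the lowest tTA mouse, whereas they overlapped with DN mice. The difference from tTA was -0.15 ± 0.05 (limma adjusted p = 0.0363), or 0.902-fold with a 95% interval of 0.844 to 0.965, and that from DN was -0.11 ± 0.05 (limma adjusted p = 0.133). The gene has 2 dimmer probe sets, which gave -0.05 ± 0.04 and -0.09 ± 0.09 against tTA (limma adjusted p = 0.523 and 0.605), and with the mean of all 3 the difference was -0.09 (limma adjusted p = 0.0877). The call was lost without rTg4510 mouse 7, 8, 10 or 11 or tTA mouse 13, 15, 17 or 21, with adjusted p up to 0.0894. It was also lost when the fit was adjusted for each array's choroid plexus score (-0.14, adjusted p = 0.0642) and with only the rTg4510 and tTA mice fitted (adjusted p = 0.0561).

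In the activators, Psme1 had 8.45, 8.60 and 8.81 (lowest, median and highest of 10) in rTg4510 and 8.19, 8.47 and 8.62 in tTA mice at 4.7 months, and 8.42, 8.51 and 8.73 in DN mice. Of the 10 rTg4510 mice, 9 lay above the tTA median and 4 above every tTA mouse, so the groups overlapped. The gene rose by 0.18 ± 0.05 against tTA (limma adjusted p = 0.0198), a 1.13-fold difference with an interval of 1.06 to 1.21. At 6.1 months the 6 rTg4510 mice had 8.51, 8.69 and 8.87 and the tTA mice 8.28, 8.61 and 8.71, and the difference of 0.15 ± 0.06 was not called (limma adjusted p = 0.112). It passed when rTg4510 mouse 75, the lowest of its group, was left out (adjusted p = 0.0433).

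Psme2, its partner chain, had 7.64, 7.79 and 7.97 in rTg4510, 7.41, 7.61 and 7.77 in tTA and 7.48, 7.62 and 7.85 in DN mice at 4.7 months. Here 8 of 10 rTg4510 mice exceeded every tTA mouse, and 10 of 10 exceeded the tTA median. The gene rose by 0.18 ± 0.05 (limma adjusted p = 0.0149; 1.13-fold, interval 1.06 to 1.21). At 6.1 months the values were 7.71, 7.85 and 8.04 in rTg4510, 7.32, 7.70 and 7.83 in tTA and 7.50, 7.64 and 7.75 in DN mice, with 4 of 6 rTg4510 mice above every tTA mouse. It rose by 0.19 ± 0.06 (limma adjusted p = 0.0293; 1.14-fold, interval 1.05 to 1.25). This call was lost without rTg4510 mouse 7, 10 or 12, with adjusted p of 0.109, 0.0840 and 0.0536, and with only the rTg4510 and tTA mice fitted (adjusted p = 0.0902). It was also lost with centred arrays (0.16) and with the choroid plexus score in the fit, as given below.

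**Figure D4:**
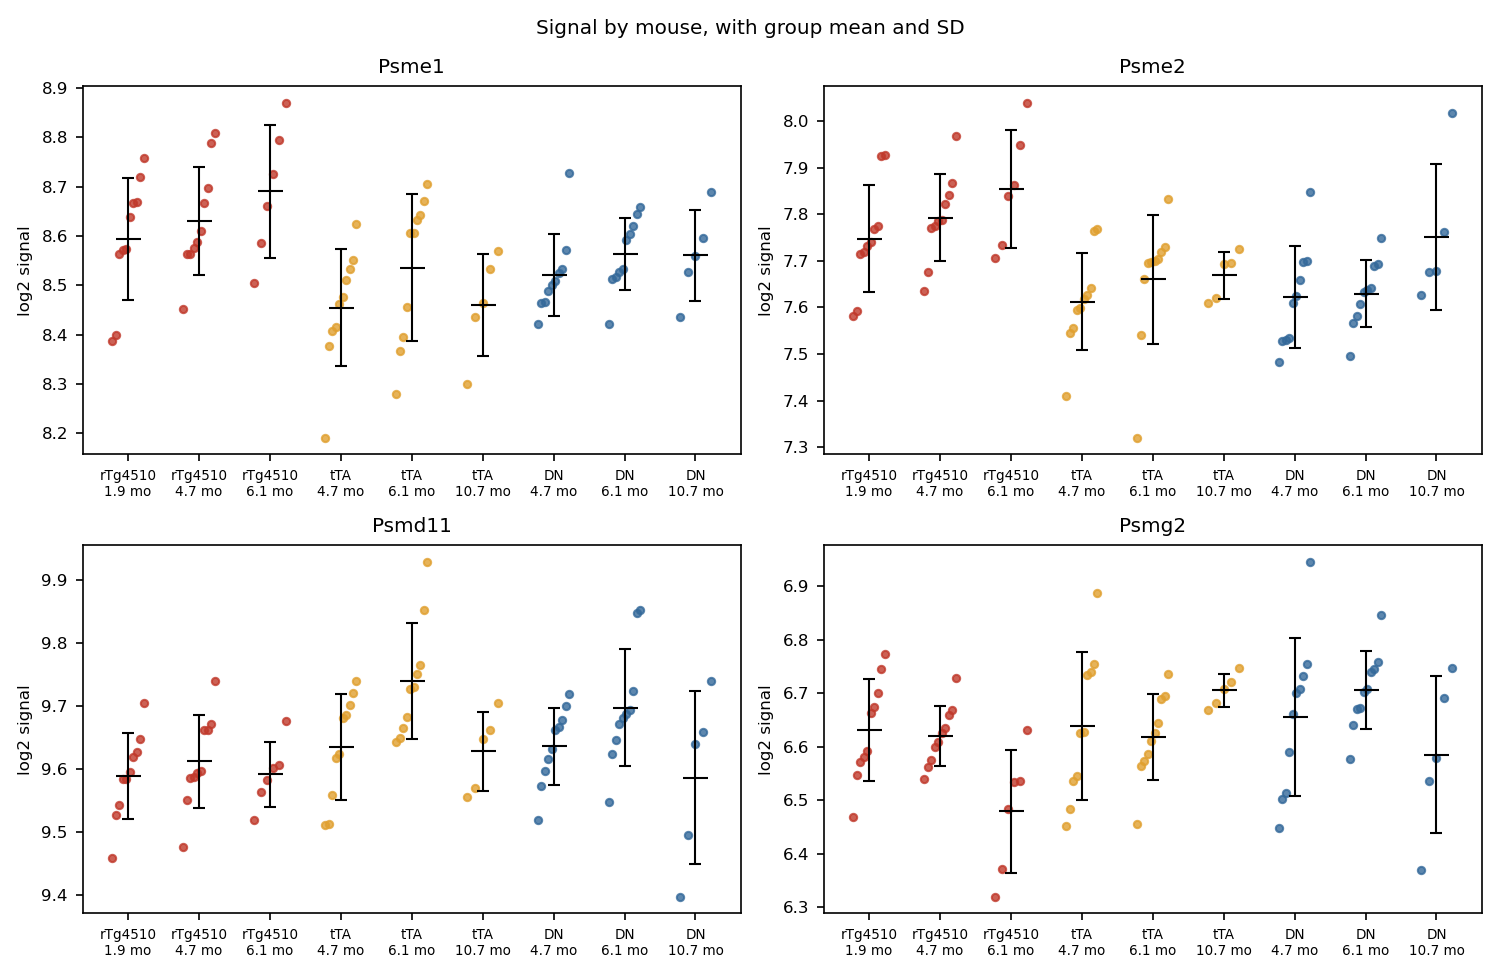
Log2 signal of Psme1, Psme2, Psmd11 and Psmg2 (vertical axes) in each mouse of the 9 groups (horizontal axes), where a point is 1 mouse and the bars are the group mean and SD. For Psme2, 8 of 10 rTg4510 mice at 4.7 months and 4 of 6 at 6.1 months lie above every tTA mouse of that age, and for Psmg2 5 of 6 rTg4510 mice at 6.1 months lie below every DN mouse.

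Promoters are shown for the PA28 chains, which were higher together, and for Psmb5, a core subunit, which was not called. They are RefSeq windows of GRCm38.p6, 250 bases before to 50 after the start, written 5′ to 3′ on the gene's strand, with every match to the motifs below in capitals. Psme1 lies at chr14:55578244-55578543 on the plus strand, Psme2 at chr14:55591052-55591351 on the minus strand, and Psmb5 at chr14:54617946-54618245 on the minus strand.
Psme1: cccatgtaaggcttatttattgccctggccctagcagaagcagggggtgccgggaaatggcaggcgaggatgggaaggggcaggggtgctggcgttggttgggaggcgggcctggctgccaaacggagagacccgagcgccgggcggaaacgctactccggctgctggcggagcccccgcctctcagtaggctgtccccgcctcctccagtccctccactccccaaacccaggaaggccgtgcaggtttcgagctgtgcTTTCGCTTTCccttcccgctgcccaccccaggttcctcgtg
Psme2: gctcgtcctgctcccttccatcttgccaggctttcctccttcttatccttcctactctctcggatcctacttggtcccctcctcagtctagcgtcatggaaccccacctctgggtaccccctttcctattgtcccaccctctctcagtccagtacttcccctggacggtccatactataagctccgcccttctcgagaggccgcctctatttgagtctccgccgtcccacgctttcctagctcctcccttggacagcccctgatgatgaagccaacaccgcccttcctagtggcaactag
Psmb5: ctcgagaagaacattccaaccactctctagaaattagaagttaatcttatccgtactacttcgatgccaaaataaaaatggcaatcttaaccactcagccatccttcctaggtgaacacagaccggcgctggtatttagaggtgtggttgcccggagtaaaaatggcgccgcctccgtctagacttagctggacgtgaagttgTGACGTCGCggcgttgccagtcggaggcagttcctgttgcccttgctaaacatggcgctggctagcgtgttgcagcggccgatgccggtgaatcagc
The motifs searched on both strands were the interferon element (TTTC, any 2 bases and TTTC), the interferon gamma element TTCNNNGAA, the antioxidant element TGACNNNGC and the CCAAT box. The Psme1 window held 1 interferon element, 10 bases after the start, the Psmb5 window 1 antioxidant element, beginning 47 bases before the start, and the Psme2 window, like a second one that overlaps it, none of the 4. Of the 43 genes 35 had a window in the table, 39 windows in all. The interferon element was in 5 of these (12.8%) beside 3.44% of all 32851 windows, and the antioxidant element in 4 (10.3%) beside 12.4%. The CCAAT box was in 33.3% beside 37.4%, and the interferon gamma element in 5.13% beside 8.30%. Psmb3, Psmd4, Psmd9 and Psmg4, the other holders of the interferon element, were not called in either tau contrast.

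The remaining members of the class were not called. Psme3, the gamma form, differed by 0.01 ± 0.05 at 4.7 and 0.03 ± 0.05 at 6.1 months, with intervals of -0.09 to 0.12 and -0.06 to 0.13. The inhibitor Psmf1 differed by -0.03 ± 0.04 and by 0.0005 ± 0.060, the smallest difference of the class. With each array's choroid plexus score in the fit, the calls of both PA28 chains against tTA were lost. The differences of Psme1 and Psme2 at 4.7 months were then 0.14 and 0.14 (adjusted p = 0.153 and 0.141), down from 0.18 and 0.18, and that of Psme2 at 6.1 months was 0.16 (adjusted p = 0.0592), down from 0.19. No fit had the microglial or the astrocyte score as a covariate. The relations of both genes with the microglial and choroid plexus scores were tested separately, among rTg4510 mice of 1 age.

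The chaperones that build the core showed 1 gene near the threshold. Psmg2, which with Psmg1 starts the alpha ring, had 6.32, 6.51 and 6.63 in rTg4510, 6.46, 6.62 and 6.74 in tTA and 6.58, 6.71 and 6.85 in DN mice at 6.1 months. It differed from tTA by -0.14 ± 0.05 (limma adjusted p = 0.0549), and was called after adjustment for the choroid plexus score (-0.16, adjusted p = 0.0267). It was also called with centred arrays, brighter probe sets and the plain linear model (adjusted p = 0.0261, 0.0294 and 0.0443). It was not called with other groups in the fit, the variance trend or probe sets averaged by gene. Against DN it fell by 0.23 on the log2 scale (SE 0.05, limma adjusted p = 0.000981), or 0.854-fold with an interval of 0.799 to 0.914, and all 6 rTg4510 mice lay below the DN median. A second probe set of the gene, dimmer, gave 0.05 ± 0.06 against tTA and -0.04 ± 0.06 against DN. Psmg3 differed from tTA by -0.12 ± 0.06 at 6.1 months, Psmg4 by 0.08 and Psmg1 by 0.06 ± 0.07, none of them called, and Psmg1 was the smallest of the class. The 19S base chaperones Psmd5 and Psmd9 differed by at most -0.04 ± 0.05 at either age.

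Against DN mice, which lack tTA as well, the set again held few calls. Psme2 rose at both ages, by 0.17 ± 0.05 at 4.7 months (limma adjusted p = 0.0121) and by 0.23 ± 0.06 at 6.1 months (limma adjusted p = 0.00813). After adjustment for the choroid plexus score, the call at 4.7 months was lost (0.14, adjusted p = 0.0524) and that at 6.1 months remained (0.19, adjusted p = 0.0161). Psme1 differed by 0.11 and 0.13 without passing. At 4.7 months 1 gene was higher and 0 lower, where 7.85% of all genes were higher and 7.91% lower. At 6.1 months 1 was higher and 1, Psmg2, lower, where 8.55% and 11.4% of all genes were. Of the 43 genes, 34 (79.1%) had a lower mean in rTg4510 at 6.1 months, beside 57.6% of all genes. The median was -0.028 beside -0.020 for all genes. Among brighter probe sets only, the median was -0.033 for 42 genes of the set and -0.035 for all 6480 genes, so the set was not lower than genes of like signal. Centring every array on its median took the median of all genes to -0.056, the split over all genes from 1009 higher and 1341 lower to 796 and 1824, and the calls of the set to 1 higher and 6 lower, adding Psma5, Psmc2, Psmd6, Psmc3ip and Psme3ip1 to Psmg2. These comparisons share their rTg4510 mice with those against tTA.

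Few genes of the set were called between tTA and DN mice. In this contrast 0 of 43 genes were called at 4.7 months, where 1.51% of all genes were higher and 3.16% lower. At 10.7 months, with 5 mice of each genotype, 0 were called, where 0.339% and 0.762% of all genes were. At unadjusted p below 0.05 there were 3 and 0, where 15.5% and 9.84% of all genes were. The 19S deubiquitinase Psmd14 came nearest at 4.7 months, at 10.21 ± 0.06 in tTA and 10.10 ± 0.04 in DN mice (SD, n = 10 each), a difference of 0.11 ± 0.03 (SE, limma adjusted p = 0.0519). It was called under 6 of 8 alternative settings, and without DN mouse 57, tTA mouse 65 or 69 or rTg4510 mouse 37 or 44. Psme1 and Psme2 differed by -0.07 ± 0.05 and -0.0092 ± 0.047 at that age.

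At 6.1 months 0 genes were higher and 1 lower, where 2.70% of all genes were higher and 3.62% lower. The 1 called was Psmc3ip, which encodes a meiotic recombination factor and no part of the proteasome. It had 5.98, 6.11 and 6.42 (lowest, median and highest) in tTA and 6.22, 6.30 and 6.54 in DN mice, and 9 of 10 tTA mice lay below every DN mouse. It fell by 0.21 on the log2 scale (SE 0.06, limma adjusted p = 0.0295). The call was lost without DN mouse 24, 26 or 29 or tTA mouse 15, 17 or 20, with adjusted p up to 0.0614. At 10.7 months its 5 tTA mice had 6.30, 6.29, 6.23, 6.17 and 6.12 and its 5 DN mice 6.33, 6.28, 6.36, 6.34 and 6.26, all 5 tTA mice below the DN median, and the difference was -0.09.

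With age, no gene of the set passed the F test over the 3 ages in rTg4510, where 2.87% of all genes did, in tTA (0.296%) or in DN mice (0.364%). At unadjusted p below 0.05 there were 6, 2 and 2 genes, where 16.8%, 11% and 12.7% of all genes were. In rTg4510 mice 30 of 43 genes (69.8%) had a lower mean at 6.1 than at 1.9 months, beside 53.0% of all genes, with a median of -0.046 beside -0.0066 for all genes. Within the beta ring all 7 means were lower, by -0.014 to -0.11, and within the alpha ring 7 of 8 were, with Psma8 the exception. Each age was its own set of mice. The labels do not give the order of hybridisation, so age and that order could not be separated here. Psmb5 had 10.10 ± 0.07 at 1.9 months (range 10.01 to 10.20), 10.02 ± 0.05 at 4.7 months (9.93 to 10.11) and 9.99 ± 0.03 at 6.1 months (9.95 to 10.04; mean ± SD, n = 10, 10 and 6), so that most of the difference lay between the first 2 ages. Its difference of -0.11 ± 0.04 was not called (limma adjusted p = 0.150 by the F test), and was when all 9 groups entered 1 fit (adjusted p = 0.0443).

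Psmg2 had the smallest p of the age test in rTg4510 mice, with 6.63 ± 0.10, 6.62 ± 0.06 and 6.48 ± 0.12 (SD, n = 10, 10 and 6) and a limma adjusted p of 0.135. In tTA mice, from 4.7 to 10.7 months, the beta ring differed by 0.0048 to 0.05, and in DN mice by -0.02 to 0.10. Age in rTg4510 mice ran over a younger span than in the control genotypes, and the differences cannot be set against each other. Whether the tau contrast differed between 4.7 and 6.1 months was tested as an interaction. No gene of the set passed, where 0% of all genes did, and Psme1 and Psme2 gave -0.02 ± 0.08 and 0.01 ± 0.08. The interaction of the tTA contrast called none of the set and 0.0678% of all genes. At unadjusted p below 0.05, the 2 interactions had 1 and 0 genes of the set, where 8.11% and 7.53% of all genes were.

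The immunoproteasome subunits, which replace Psmb5, Psmb6 and Psmb7 in the core after interferon and were left out of the set, stood beside PA28. Psmb8 had 4.90, 5.36 and 5.73 in rTg4510 and 4.30, 4.64 and 4.86 in tTA mice at 6.1 months, with no overlap, and rose by 0.71 ± 0.09 (limma adjusted p = 4e-06). At 4.7 months it differed by 0.30 ± 0.10 (limma adjusted p = 0.0613). Psmb9 rose by 0.23 ± 0.07 and 0.26 ± 0.09 (limma adjusted p = 0.0339 and 0.0415), and Psmb10 differed by 0.04 ± 0.05 and 0.04 ± 0.06. Psmb8 and Psmb9 were both dim, below the median gene signal.

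Of 9 measured genes for factors that bind proteasome promoters, Nfe2l1, which raises subunit genes when the proteasome is inhibited, differed by 0.02 ± 0.04 and -0.06 ± 0.05. Nfe2l2, the factor of oxidative stress, rose by 0.40 ± 0.11 and 0.66 ± 0.14 (limma adjusted p = 0.0231 and 0.00211), and Nfyb, a subunit of the CCAAT factor NF-Y, fell by 0.19 and 0.28. Irf1, an interferon factor, rose at 6.1 months by 0.38 ± 0.10 (limma adjusted p = 0.00886). In all 1 rose and 2 fell at 4.7 months and 2 rose and 2 fell at 6.1 months. Of 6 further proteasome components, among them the maturation factor Pomp and the deubiquitinases Usp14 and Uchl5, none was called at either age. Of 7 ubiquitin handling genes, 1 fell at 6.1 months, the shuttle Ubqln4, by 0.21 (limma adjusted p = 0.00503), while the ligase Stub1 differed by 0.02 ± 0.03.

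After each group's mean was removed, the signals of Psme1 and Psme2 correlated across the 76 mice with r = 0.69. The 91 pairs of 20S core genes without Psma8 had a median r of 0.25 and ran from -0.32 to 0.66. Psme1 and Psme2 with those genes had medians of 0.17 and 0.27. These are descriptions, and all genes share the arrays and their normalisation. Within rTg4510 mice of 1 age, Psme1 and Psme2 were set against the microglial and the choroid plexus score, 12 relations in all. Psme1 followed the microglial score at 1.9 months (Pearson r = 0.85, permutation p = 0.00149, adjusted over the 12 relations 0.0179; Spearman rho = 0.76, permutation p = 0.0152, adjusted 0.10), and r was 0.79 without the 2 mice farthest from the median score. At 6.1 months, with 6 mice, r was 0.91 (exact permutation p = 0.00556, adjusted 0.0333; rho = 0.94, exact permutation p = 0.0167, adjusted 0.10), and 0.82 without 2 mice. At 4.7 months r was 0.46 (permutation p = 0.186, adjusted 0.249), and -0.29 without 2 mice, of which mouse 40 is the lowest in the score. None of the other relations passed after adjustment. With the choroid plexus score, Psme1 gave r = 0.30, 0.42 and 0.67 and Psme2 0.73, 0.26 and 0.77 at 1.9, 4.7 and 6.1 months. Without the 2 farthest mice these were -0.63, 0.62 and -0.30 for Psme1 and 0.22, 0.48 and 0.39 for Psme2. Psme2 gave 0.63, 0.74 and 0.84 with the microglial score, and 0.75, 0.24 and 0.29 without 2 mice. Mouse 7 was the highest and mouse 75 the lowest in both scores at 6.1 months. Whether either relation holds apart from the other score was not tested.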

How the data were processed

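Total RNA of the hippocampus of 76 mice was amplified, biotin labelled and hybridised to Affymetrix HT MG-430A arrays. The authors summarised the arrays by RMA (version not given in the sources used here), and the deposited values are log2 signals of 22716 probe sets. No scan dates, counts or detection calls were used, and the number of arrays limits the precision.

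The 90 control probe sets were left out. Symbols came from the platform annotation, in which 18003 of the tested probe sets had 1 symbol, 287 several and 4336 none listed. Groups followed the labels' genotype and age. limma 3.58.1 in R 4.3.3 (lmFit, eBayes) was fitted to the 3 genotypes of an age (tTA and DN at 10.7 months), or the 3 ages of a genotype, with Benjamini-Hochberg adjustment over 22626 probe sets. The study's methods, an analysis of variance over genotypes of an age, set this design. The study excluded 1 outlying tTA array of 6.1 months, and the labels do not say whether it is among these. The scripts were tested on simulated data. Permutation tests were two-sided. Labels name separate mice, and mouse numbers are not shared between groups.

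The genes, lists and motifs were chosen with earlier results of these data known. Genes described by group were those called between rTg4510 and tTA mice, the most changed in the other contrasts and the extremes of each class at 6.1 months. Psmc3ip, also listed among further components, was counted as a gene of the set only. Alternatives were the groups fitted, array centring, a plain linear model, a variance trend, brighter probe sets, the choroid plexus score, an average over the probe sets of each gene, and each array left out.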

Additional observations from a re-analysis of the deposited data

Results flagged for a closer look

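Among 108 sets of group values (5 genes and 7 class means in each of 9 groups), 7 held a mouse that stood apart from the rest of its group by Dixon's criterion at the 95% level, where chance gives about 1 in 20. Psme1 was 8.727 in DN mouse 70 at 4.7 months, with the next mouse at 8.572. Psmc3ip was 6.419 in tTA mouse 22 at 6.1 months, above the next at 6.195. In rTg4510 mice of 4.7 months, the mean of the alpha ring without Psma8 was 9.391 in mouse 35 (next 9.324). That of the 19S ATPases was 9.455 in mouse 41 (next 9.526). The mean of the 19S non-ATPases was 9.488 in rTg4510 mouse 84 at 1.9 months (next 9.431) and 9.287 in the lowest DN mouse at 10.7 months (next 9.414). The mean of the activators and the inhibitor was 7.451 in tTA mouse 14 at 6.1 months (next 7.605), which was also the lowest tTA mouse of that age in both Psme1 and Psme2. Without it, Psme2 remained called against tTA at 6.1 months.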

How the results depend on the processing

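The number of mice, 5 to 10 a group, limits the precision. In the main fits, those without any of the alternatives, no difference between genotypes smaller than that of Psmd11 at 6.1 months was called. Smaller ones were called under some alternatives, such as that of Psmd14 between tTA and DN mice at 4.7 months (0.11 with all 9 groups fitted). Counts are of the 43 genes. With the choroid plexus score in the fit, 0 genes instead of 2 were called against tTA at 4.7 months, 0 instead of 1 against DN at 4.7 months, and 1 (Psmg2, lower) against tTA at 6.1 months, where Psme2 and Psmd11 were both lost. With only the compared groups fitted, 0 were called against tTA at 6.1 months, and with probe sets averaged by gene 1. With centred arrays the count there stayed at 2, but Psme2 was lost and Psmg2 was added. Against DN at 6.1 months, 7 were called with centred arrays and 5 among brighter probe sets, instead of 2. Between tTA and DN mice at 4.7 months, 1 (Psmd14) instead of 0 was called with all 9 groups fitted, centred arrays, the plain linear model, the variance trend, brighter probe sets and probe sets averaged by gene. Age in rTg4510 mice gave 1 (Psmb5) instead of 0 with all 9 groups fitted.

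Leaving out each array in turn gave 2 to 2 calls against tTA at 4.7 months, 1 to 2 against DN at 4.7 months (2 without DN mouse 74, adding Psmg4), 0 to 3 against tTA at 6.1 months (0 without rTg4510 mouse 7 or 10), 2 to 3 against DN at 6.1 months, and between tTA and DN 0 to 1 at 4.7 and 0 to 2 at 6.1 months (2 without tTA mouse 21, adding Psmd14). In the tTA contrast of 10.7 months, the 3 age tests and both interactions it gave 0 to 0. Psme2 was called in 30 of 30 such fits at 4.7 months against tTA and in 23 of 26 at 6.1 months, and Psmd11 in 18 of 26. Under the alternatives run, no sign changed for Psme1 against tTA and Psme2 against tTA and DN at both ages, or at 6.1 months for Psmd11 against tTA, Psmg2 against DN and Psmc3ip between tTA and DN. No paired analysis was possible because the mouse numbers are not shared between groups.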
